A study of Mus musculus with 6 samples.

Results

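MicroRNA genes whose signal reached a level threshold were followed across platelets and megakaryocyte progenitors of mice. The threshold was the median of the mean signals of all 72688 probes, 4.23 on the deposited log2 scale. Of 584 genes with a symbol of the form Mir and a number, named alone on a probe, 277 reached it as a mean over 6 arrays and 307 did not. That was 47.4% of the microRNA genes, against 62.6% of all 30142 genes named alone on a probe. The genes were chosen by their measured level over all 6 arrays, so the levels themselves are given as a description. Mir484 (4.29) and Mir3087 (4.26) lay just inside the threshold, and Mir106b (4.22) and Mir3073b (4.22) just outside it.

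RNA was measured on Clariom D Mouse arrays, 3 of platelets from blood and 3 of bone marrow cells labelled megakaryocyte progenitors, the cells that give rise to platelet-shedding megakaryocytes. In each cell type, 1 array was made after CTC41-EVs, 1 after CTC41.5G-EVs and 1 after PBS, where EVs stands for extracellular vesicles, membrane particles that cells release. A group was thus a single pool of several mice without replicates. Dose, time, strain, age, the number of mice and the meaning of the CTC names are not stated in the labels. Some pools had white and red cells removed by magnetic beads and others did not, and the labels' protocols do not say which. The protocols also name different amounts of input RNA and both the mirVana and the RNeasy kit. The part of kit and input in the differences was not tested.

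MicroRNAs are short RNAs that guide Argonaute proteins to messenger RNAs, mostly through pairing of the seed, bases 2 to 8 of the mature strand, and so lower the output of their targets. They are cut from longer primary transcripts by Drosha in the nucleus and by Dicer in the cytoplasm. Platelets have no nucleus and carry microRNAs inherited from megakaryocytes, where families such as miR-223, miR-126, miR-142 and the let-7 family are well known. These arrays read labelled cDNA of total RNA, so mature microRNAs and their longer precursors cannot be told apart.

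Mature strands from RefSeq (GRCm38.p6) were matched by symbol for 229 of the 277 genes (82.7%), with 366 mature strands in all. The strands below belong to the genes on which the results turn, with the seed in capitals. The first 4 are those of Mir872 and Mir6994, 2 of the genes with the largest lower differences in platelets, which RefSeq places at chr4:94665167-94665227 and chr19:11923733-11923798, both on the plus strand.
mmu-miR-872-5p: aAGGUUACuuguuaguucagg
mmu-miR-872-3p: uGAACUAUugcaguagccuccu
mmu-miR-6994-5p: aCAAAGGUgggugaagccgguga
mmu-miR-6994-3p: aACGAUCUucuccgucuuugc
The next 3 belong to the genes furthest above progenitors, Mir692-1 (chr17:6895259-6895279, minus strand) and Mir3088 (chr2:28733286-28733343, plus strand).
mmu-miR-692: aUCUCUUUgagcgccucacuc
mmu-miR-3088-5p: gCUAUGCAguuguucaugagcu
mmu-miR-3088-3p: uUCAUGAGcagcugcaaaggugu
Stretches of alternating g and u, broken by c or a, stand in the strands of Mir466j (chr10:60960802-60960824, plus strand) and Mir466k (chr3:85467396-85467418, plus strand). They are of a family in which every gene above the threshold was lower in platelets.
mmu-miR-466j: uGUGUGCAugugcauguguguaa
mmu-miR-466k: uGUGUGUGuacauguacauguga
Genes that share a seed are shown by miR-181c and miR-181d, and by miR-680, the common strand of Mir680-1, Mir680-2 and Mir680-3.
mmu-miR-181c-5p: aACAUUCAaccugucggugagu
mmu-miR-181d-5p: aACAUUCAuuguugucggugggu
mmu-miR-680: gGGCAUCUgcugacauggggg
The last 3 are strands of the bright genes Mir3470b, Mir3473a and Mir3471-1, whose letters occur in several promoter windows.
mmu-miR-3470b: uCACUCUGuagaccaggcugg
mmu-miR-3473a: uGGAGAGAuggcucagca
mmu-miR-3471: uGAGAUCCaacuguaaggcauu

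Signals of the 277 genes ran from 4.26 to 12.90 as means over 6 arrays, with a median of 5.50, and 21 genes stood at 8 or more. In platelets the median of the genes was 5.28 with CTC41-EVs, 5.17 with CTC41.5G-EVs and 5.15 with PBS, against 5.83, 5.86 and 5.87 in progenitors in the same order of treatments. The lowest progenitor median thus lay above the highest platelet median. Other groups of probes stood lower on the platelet arrays too. Olfactory receptor genes, which blood cells are not known to use, had medians of 3.07 to 3.12 on the platelet arrays, against 3.77 to 3.86 on the progenitor arrays, and all probes 4.0 to 4.05 against 4.38 to 4.45. Arrays of 1 cell type correlated at 0.961 to 0.967 in platelets and 0.973 to 0.983 in progenitors over all probes, against 0.823 to 0.838 across platelets and progenitors, a description over probes of the same arrays.

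**Figure D1:**
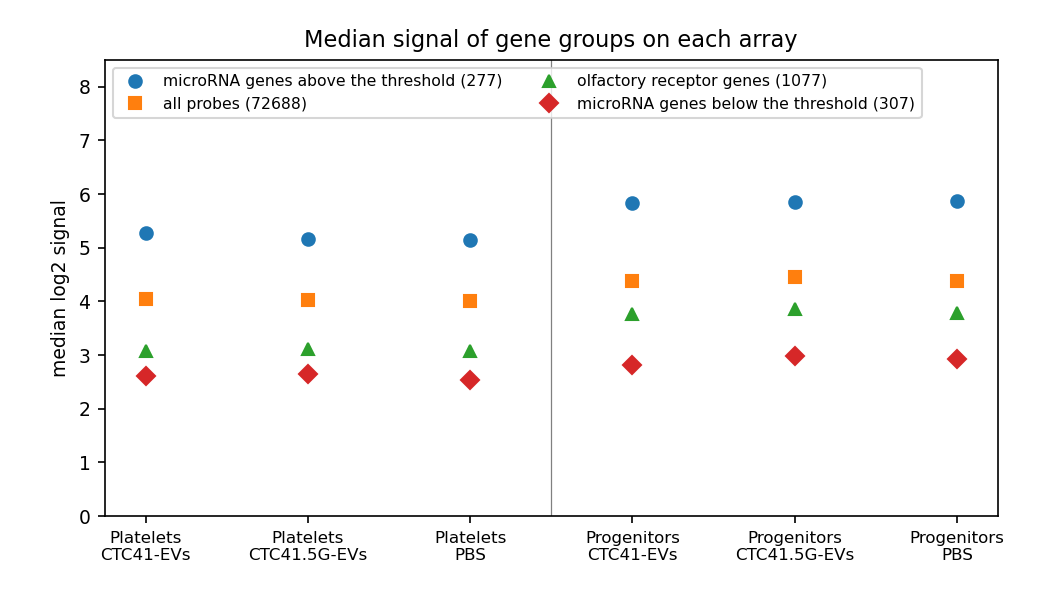
The plot gives the median log2 signal (vertical axis) of 4 groups of probes on each of the 6 arrays (horizontal axis), platelets on the left and progenitors on the right. Points of each group sit lower on the 3 platelet arrays, for microRNA genes above the threshold between 5.15 and 5.28, against 5.83 to 5.87 on the progenitor arrays.

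The comparison of cell types asked which microRNA genes set platelets apart from megakaryocyte progenitors over the 3 treatments. Of the 277 genes, 164 were called lower in platelets and 13 higher, and 100 were not called. The call needed an adjusted p (Benjamini-Hochberg) no higher than 0.05 over all 18875 genes tested, from limma with additive terms for cell type and treatment, and at least a 1.5-fold difference. Lower calls took 59.2% of the microRNA genes, against 25.7% of all genes tested, and higher calls took 4.69%, against 16.2%. The median log2 difference was -0.76 for the microRNA genes, -0.26 for all genes and -1.12 for the 250 olfactory receptor genes above the threshold, of which 220 (88.0%) were called lower. All platelet arrays lay below all progenitor arrays for 199 of the microRNA genes (54.2% of all genes tested did so) and above them for 21 (24.2% of all genes), and the arrays of 57 overlapped. The model's error joins 2 residual degrees of freedom of each gene with 5.04 prior degrees of freedom, which limma draws from all genes. It mixes array noise with treatment effects unlike in platelets and progenitors.

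Part of the lower calls rest on a platelet signal under the threshold. In platelets 43 of the 277 genes had means under 4.23, and 39 of these were among the lower calls, while 2 genes lay under it in progenitors. Over the 232 genes above it in both cell types, 125 were lower (53.9%) and 13 higher (5.6%), with a median of -0.63. Of all 16034 genes above it in both, 21.7% were lower and 16.2% higher, with a median of -0.22, and of 98 such olfactory receptor genes 78.6% were lower, with a median of -1.0. With no threshold on level, 233 of all 584 microRNA genes were lower and 26 higher, with a median of -0.43, against 23.3% lower and 11.4% higher over all genes. The balance of directions also moved with scaling. After quantile normalization 128 genes were lower and 22 higher, against 12.1% lower and 21.9% higher over all genes, and with equal array medians 110 were lower and 27 higher, against 10.1% and 24.8%. With olfactory receptor medians set equal 73 were lower and 54 higher, against 5.46% and 40.4% over all genes. In that setting the median was -0.04 for microRNA genes and 0.46 for all genes, and the microRNA median lay below that of all genes in each of these settings. Olfactory receptor genes lay lower still, with medians of -0.79 after quantile normalization, -0.74 with equal array medians and -0.40 with their own medians set equal, and 66.3%, 62.8% and 35.2% of them called lower in the same order. In bulk samples fewer cells of a type and less RNA per cell cannot be told apart.

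**Figure D2:**
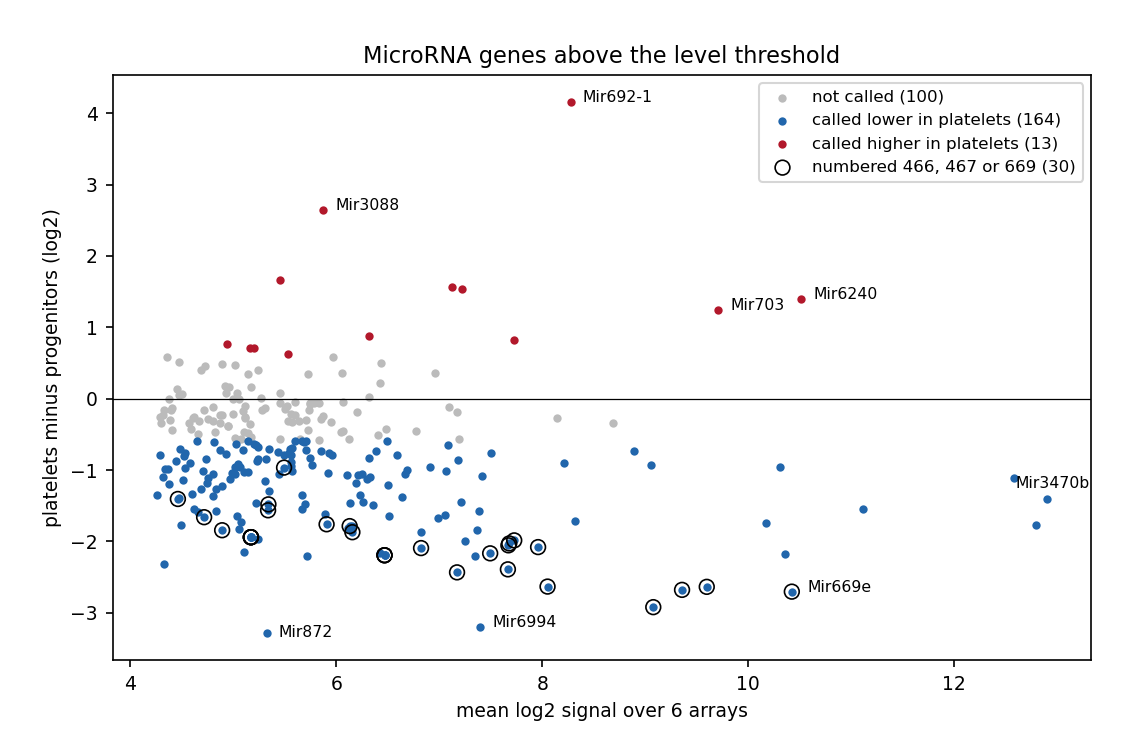
Each of the 277 genes is a point at its mean log2 signal over 6 arrays (horizontal axis) and its log2 difference of platelets minus progenitors (vertical axis), coloured by the limma call, with black rings around the 30 genes numbered 466, 467 or 669. Most points lie below 0, the ringed genes between -2.92 and -0.97, and Mir692-1 stands alone at the top at 4.16.

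Mir872, a microRNA gene inside Ift74, a gene of intraflagellar transport, had the most negative fitted difference. Platelets gave 3.13 with CTC41-EVs, 3.06 with CTC41.5G-EVs and 4.85 with PBS, against 7.09, 6.95 and 6.86 in progenitors. The progenitor arrays agreed closely and the platelet arrays did not, with the PBS array well above the pair from EV-treated mice. The log2 difference was -3.29 (SE 0.35), with a limma adjusted p of 0.000166. As the platelet mean of 3.68 lay under the threshold, measured from it the difference was -2.74, smaller than those of Mir6994 (-3.20) and Mir466f-3 (-2.92). Ift74 itself was under the threshold in both cell types, at means of 3.28 in platelets and 3.19 in progenitors, and was not tested.

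Mir6994 lies inside Patl1, a gene of messenger RNA decapping. Its signal was 6.48 with CTC41-EVs, 5.73 with CTC41.5G-EVs and 5.16 with PBS in platelets, against 9.27, 8.77 and 8.95 in progenitors. All platelet arrays lay more than 2 log2 units below all progenitor arrays. It fell by 3.20 (SE 0.21), with a limma adjusted p of 1.88e-05, while its host Patl1 was higher in platelets by 0.93 (SE 0.12).

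The other 6 of the 8 largest lower calls carry the numbers 466, 467 and 669. In mice a large cluster of microRNA genes with these numbers lies in an intron of Sfmbt2, a Polycomb group gene, and many copies differ by few bases. Mir466f-3 had 7.45, 7.79 and 7.62 in platelets (CTC41-EVs, CTC41.5G-EVs, PBS), against 10.42, 10.56 and 10.64 in progenitors, a difference of -2.92 (SE 0.19). Mir669e stood at 8.92, 9.09 and 9.21 in platelets and 11.91, 11.97 and 11.45 in progenitors in the same order, a difference of -2.70 (SE 0.25). For each of these genes the platelet values lay far below the progenitor values, with little spread inside a cell type. Mir669m-2, Mir467f, Mir466j and Mir466k differed by -2.68, -2.64, -2.63 and -2.43. For these last 4 the limma adjusted p lay between 1.2e-05 and 5.33e-05. None of the 6 kept probes names chromosome 2, where RefSeq places Mir466f-3, Mir669e and Mir669m-2. On a probe of the RefSeq chromosome the differences were smaller, at -1.25 for Mir466f-3, -0.70 for Mir669e, -1.46 for Mir669m-2 and -0.75 for Mir467f.

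Across the whole array 72 genes carried these numbers, and 30 reached the threshold: 9 numbered 466, 13 numbered 467 and 8 numbered 669. All 30 were called lower in platelets, with differences from -2.92 to -0.97 and a median of -2.01. Lower calls took 59.2% of the 277 genes and 25.7% of all genes tested. A gene that reached the threshold through its progenitor signal alone is bound to lie lower in platelets, so the count is a description. The remaining 247 genes had a median of -0.65, with 134 lower and 13 higher. Of the 13 Mir467 genes, 8 shared their signals with another. Mir467a-1, Mir467a-4, Mir467a-5, Mir467a-7 and Mir467a-8 carried the same 6 values, with a difference of -1.94, and Mir467a-3, Mir467a-6 and Mir467a-10 another common set, with a difference of -2.19. The platelet values of the set of 5 lay about the threshold, at 4.32 with CTC41-EVs, 4.27 with CTC41.5G-EVs and 4.01 with PBS. The 277 genes thus held 271 distinct sets of values, and these copies count as separate genes only by name. With each set counted once, 158 genes were lower and 13 higher, and the share of all genes in that setting is not given.

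Mir692-1 stood furthest above progenitors. It had 10.32 with CTC41-EVs, 10.45 with CTC41.5G-EVs and 10.31 with PBS in platelets, against 6.25, 6.39 and 5.94 in progenitors. Nearly 4 log2 units separated the nearest arrays of the cell types. The difference of 4.16 (SE 0.17), or 17.9-fold, had a limma adjusted p of 3.18e-06. Mir3088, inside the adenylate kinase gene Ak8, had 7.27, 6.71 and 7.60 in platelets, against 4.23, 4.40 and 5.01 in progenitors in the same order, a difference of 2.65 (SE 0.15). Ak8 itself was not called, at -0.54 (SE 0.09). Mir219c differed by 1.67 (SE 0.12), with all platelet arrays at 5.99 or more and all progenitor arrays at 4.80 or less.

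Mir684-2 and Mir684-1 had nearly the same signals, with differences of 1.57 (SE 0.22) and 1.54 (SE 0.22). Mir6240 had 11.33, 11.21 and 11.08 in platelets (CTC41-EVs, CTC41.5G-EVs, PBS), against 9.75, 9.94 and 9.75 in progenitors, a difference of 1.39 (SE 0.23). Mir703 differed by 1.24 (SE 0.27) and Mir8115 by 0.88 (SE 0.22). Mir8115 was the exception in this set, since its platelet and progenitor arrays overlapped. Its call was lost when either CTC41.5G-EVs array was left out (difference 0.68, limma adjusted p 0.0787 without the platelet array and 0.0815 without the progenitor array). The other 5 genes called higher were Mir320, Mir3095, Mir129-2, Mir7217 and Mir1951, at 0.82, 0.76, 0.72, 0.70 and 0.63, and they are named here because so few genes were higher.

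**Figure D3:**
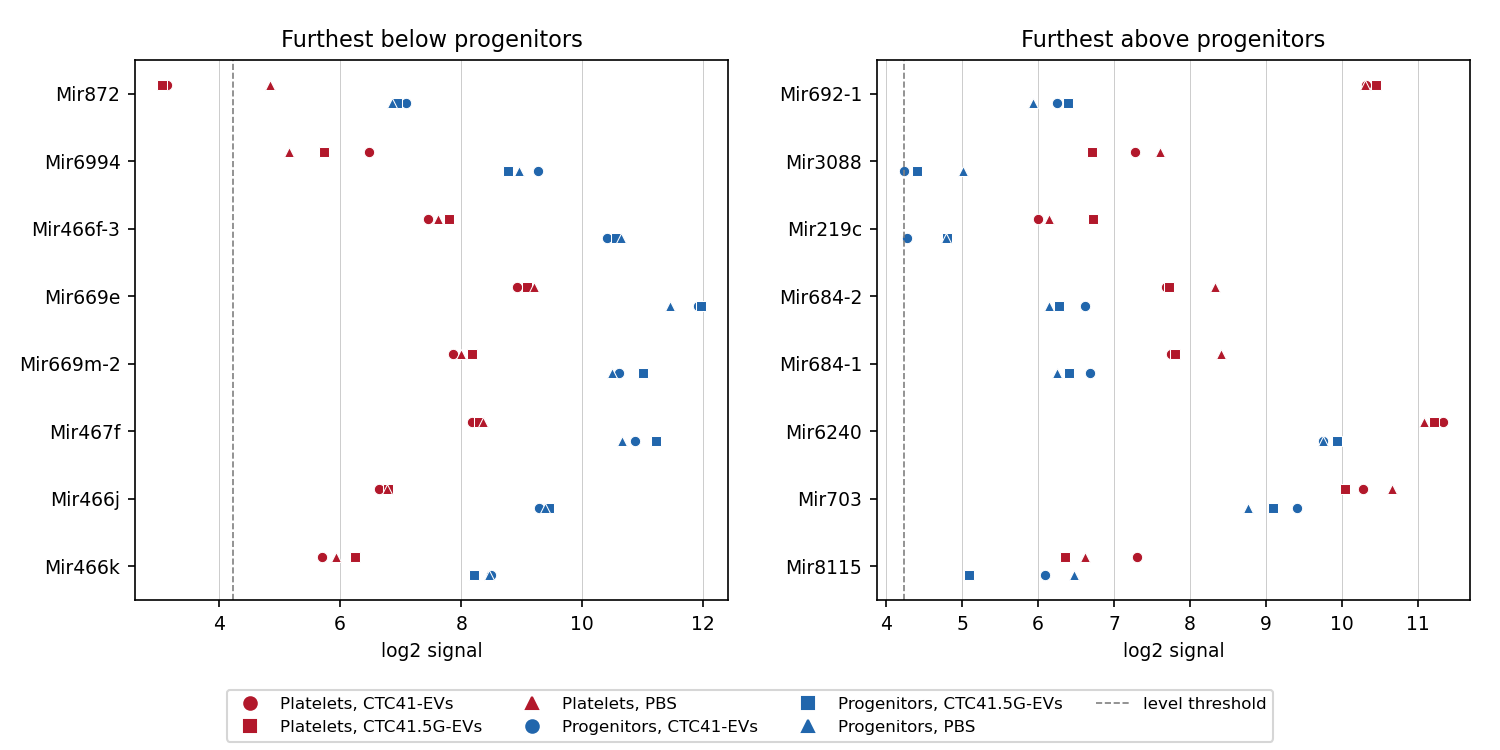
The 8 genes called lower with the largest differences (left) and the 8 called higher (right) are shown by log2 signal on each array (horizontal axis), with platelets in red above progenitors in blue, a symbol per treatment and the level threshold as a dashed line. Red and blue points are separate for all genes but Mir8115, and points that coincide hide each other, as for Mir692-1 in platelets at 10.32 and 10.31.

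The 6 brightest genes were Mir3470b (12.90), Mir3473a (12.79), Mir1954 (12.59), Mir3471-1 (11.11), Mir6240 (10.51) and Mir669e (10.42), as mean log2 signals over 6 arrays. Mir3470b had 11.98, 12.38 and 12.22 in platelets (CTC41-EVs, CTC41.5G-EVs, PBS), against 13.58, 13.71 and 13.52 in progenitors, a difference of -1.41 (SE 0.28). Mir3473a, Mir3471-1 and Mir1954 differed by -1.77, -1.54 and -1.11. Mir1954 lies inside Eng, the endoglin gene, which was not called (-0.25, SE 0.12). Another probe of Mir1954 had a mean of 6.75 and a difference of -0.92, where the kept probe had 12.59. Calls of these 4 genes were lost when certain single arrays were left out. Mir1954 also came under 1.5-fold, and so lost its call, with olfactory receptor medians set equal. Without the CTC41.5G-EVs platelet array, the limma adjusted p was 0.153 for Mir3470b, 0.0877 for Mir3473a, 0.0523 for Mir3471-1 and 0.205 for Mir1954. Their differences without it were -1.45, -1.81, -1.62 and -1.18, no smaller than with all arrays. In that fit 1 residual and 4.35 prior degrees of freedom were left. Mir3470b also lost its call without the CTC41.5G-EVs progenitor array (0.0919), and Mir1954 without that array (0.139) or without the CTC41-EVs array of platelets (0.0967) or progenitors (0.0588).

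The chromosome named in a probe's identifier was set against the chromosome that RefSeq gives for the gene. Among the 249 of the 277 genes where both were known, 22 differed (8.84%). The share was 1.45% among 276 microRNA genes below the threshold and 0.175% among 21764 other genes. Of the 10 brightest microRNA genes, 9 could be compared and 6 differed, Mir3470b, Mir3473a, Mir3471-1 and Mir669e among them. The 22 genes had a median level of 7.53 and a median difference of -1.74, with 19 lower and 2 higher. The 227 genes on the same chromosome had a median level of 5.34 and a median difference of -0.64, with 123 lower and 10 higher. The 28 genes that could not be compared had a median level of 5.46 and a median difference of -1.52, with 22 lower and 1 higher. Of all genes tested, 25.7% were lower and 16.2% higher.

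For 14 of the 22 genes another probe lay on the chromosome that RefSeq gives, and 10 of these probes reached the threshold. The choice of the brightest probe sets the size of several results. The probes behind the smaller differences given above had levels of 6.23 for Mir466f-3, 6.72 for Mir467f, 3.82 for Mir669e and 2.5 for Mir669m-2, so that the last 2 lay under the threshold. Mir3471-1 had a level of 5.42 there, against 11.11 on the kept probe, with a like difference of -1.53. Mir684-1 kept its direction (1.56). Mir1950 was the 1 gene whose probes differed in sign, with -2.16 on the kept probe and 0.42 at a level of 1.72 on the other. Mir8115 and Mir3473a had no other probe. MicroRNA genes were also taken only through probes on the RefSeq chromosome, an alternative added after seeing the data. Of these genes 237 reached the threshold, 131 were lower and 11 higher, with a median of -0.68. The share of all genes called in that fit is not given.

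The mature strands of some bright genes, printed above, recur elsewhere in the genome. Exact matches to all mature strands were counted in 32851 RefSeq promoter windows, which hold 250 bases before to 50 after a gene's start, on both strands. The strand of Mir3471-1 occurred in 11 windows (0.0335%), that of Mir3470b in 10 (0.0304%) and that of Mir3473a in 9 (0.0274%), and miR-3473b occurred in 32 (0.0974%). These 4 were the only ones among 348 distinct mature strands of the 277 genes found in at least 2 windows, and 5 of all 1674 distinct mouse strands in the table were. A match describes these letters and does not show which transcripts the probes read.

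Genes with a common seed were called alike in some groups and not in others. The matched genes held 18 seeds shared by at least 2 genes. Mir680-1, Mir680-2 and Mir680-3, with the seed shown above, were all lower, by -1.13, -1.57 and -1.44. Mir181c and Mir181d have the same seed and lie within 10000 bases of each other. Mir181c had 5.27 with CTC41-EVs, 5.06 with CTC41.5G-EVs and 4.92 with PBS in platelets, against 6.65, 6.68 and 6.76 in progenitors, a difference of -1.61 (SE 0.12). Mir181d had 7.26, 7.04 and 6.80, against 7.06, 7.14 and 7.26, which overlapped, and a difference of -0.12 (SE 0.16). The pair with opposite calls was Mir129-1 at -1.26 and Mir129-2 at 0.72. Mir30c-1 and Mir30e, which share a seed too, were not called at 0.36 and 0.47.

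Of the 277 genes, 200 had a position in the table on the chromosome of their probe, and 93 of these lay inside a longer gene, of which 68 had a tested host. Only longer genes on the same strand as the microRNA gene were counted as hosts. Of the 68 pairs, neither was called in 31. The microRNA gene alone was lower in 23 and higher in 3, and the host alone was higher in 5. Of the hosts, 9 were called higher and 2 lower, where 16.2% and 25.7% of all genes were. Whether the pairs called in both differ in number from unrelated calls was not tested. In 2 cases both were lower, Mir7055 along with Slc17a7 and Mir338 along with Aatk. In 4 cases the gene was lower and the host higher: Mir6994 in Patl1, Mir3109 in Anxa2, Mir5123 in B4galt1 and Mir1933 in Ugp2. Mir1933 fell by 2.14 (SE 0.16) while Ugp2 was higher by 1.79 (SE 0.10), and Mir5123 fell by 1.57 (SE 0.20) while B4galt1 was higher by 1.38 (SE 0.09). The platelet means of Mir1933 (4.04), Mir5123 (4.04) and Mir3109 (3.90) lay under the threshold, and measured from it the differences were -1.95, -1.39 and -0.45, while that of Mir6994 (5.79) lay above it. Over the 68 pairs Pearson's r of the differences was -0.15, a description across genes on the same arrays.

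Genes whose starts lay within 10000 bases of a neighbour formed 14 groups. Of these, 3 groups, of 7, 3 and 9 genes, lie in the imprinted microRNA region of chromosome 12. Their calls are a description beside the 59.2% of the 277 genes and 25.7% of all genes called lower. In the group of 7, Mir673, Mir493, Mir337, Mir665, Mir3070b and Mir432 were lower, from -1.64 to -0.61, and Mir540 was not called (0.51). In the group of 9, Mir758, Mir679, Mir667 and Mir544 were lower, at -1.03, -1.47, -1.99 and -0.59, and 5 genes were not called, with Mir329 at 0.58. Mir23a, Mir27a, Mir24-2 and Mir3074-2, of a cluster known in blood cells, were not called, at 0.08, 0.36, 0.18 and -0.34.

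Blood microRNAs were followed through 3 lists. Of 67 listed symbols of platelets and megakaryocytes, 39 had a probe of their own, and 16 of these were above the threshold. Of these 16, 0 were higher and 4 lower in platelets, with a median of -0.26, where 16.2% and 25.7% of all genes were called. Of 39 listed symbols of progenitors and leukocytes, 11 of 26 with a probe of their own were above it, 0 higher and 5 lower, with a median of -0.22. Of 11 erythroid symbols, Mir486 was the 1 gene tested, at -0.43 (SE 0.12), and was not called. In the order of the lists, 24, 12 and 4 symbols stood on probes that name other genes too, among them Mir223, Mir126, Mir21a, Mir191, Mir17, Mir451a and Mir144, and these were not analysed here.

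Among the platelet and megakaryocyte genes, Mir146b, known from inflammatory signalling, had 3.70, 3.97 and 3.63 in platelets (CTC41-EVs, CTC41.5G-EVs, PBS), against 4.90, 5.04 and 4.67 in progenitors. The groups did not overlap, and all platelet arrays were under the threshold. The difference was -1.10 (SE 0.10), and -0.64 measured from the threshold. Mir96, of the miR-183 cluster, had 4.88, 4.17 and 3.77 in platelets, against 5.46, 5.45 and 5.09 in progenitors, a difference of -1.06 (SE 0.15). Mir326 had 4.74, 4.48 and 4.39 in platelets, against 5.52, 5.39 and 5.57 in progenitors, a difference of -0.95 (SE 0.10). All its platelet arrays lay below its progenitor arrays. Mir92b, a relative of the miR-17-92 cluster, had 5.32, 5.29 and 5.06 in platelets, against 5.77, 6.19 and 5.79 in progenitors, a difference of -0.69 (SE 0.11) that turned to 0.026 when olfactory receptor medians were set equal. Mir142, abundant in many blood cells, differed by 0.01 (SE 0.09), and Mir150, of lymphocytes and megakaryocytes, by -0.15 (SE 0.09).

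The 5 lower genes of the progenitor and leukocyte list were Mir101c, Mir181c, Mir196a-2, Mir210 and Mir29b-1. Mir196a-2, of the Hox clusters, had 5.37 with CTC41-EVs, 5.14 with CTC41.5G-EVs and 5.71 with PBS in platelets, against 7.0, 6.64 and 6.97 in progenitors, a difference of -1.46 (SE 0.12). Mir210, known for its response to low oxygen, had 5.12, 4.88 and 4.74, against 6.01, 6.06 and 5.86, a difference of -1.06 (SE 0.10). Both genes had separate groups of arrays. Mir29b-1 had 3.97, 4.0 and 4.03 in platelets, all under the threshold, against 4.86, 4.57 and 5.21 in progenitors, a difference of -0.88 (SE 0.13). Mir101c had 6.62, 5.29 and 6.80 in platelets, against 8.06, 8.03 and 7.51 in progenitors, a difference of -1.63 (SE 0.34). Its platelet array with CTC41.5G-EVs stood apart from the other pair. With arrays centred on olfactory receptor genes, Mir181c, Mir196a-2 and Mir101c kept their calls, and Mir146b (-0.38), Mir96 (-0.34), Mir326 (-0.24), Mir210 (-0.34) and Mir29b-1 (-0.16) did not. Mir29b-1 and Mir92b also lost their calls after quantile normalization (-0.52 and -0.48) and with equal array medians (-0.50 and -0.32), and Mir326 with equal array medians (-0.58).

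**Figure D4:**
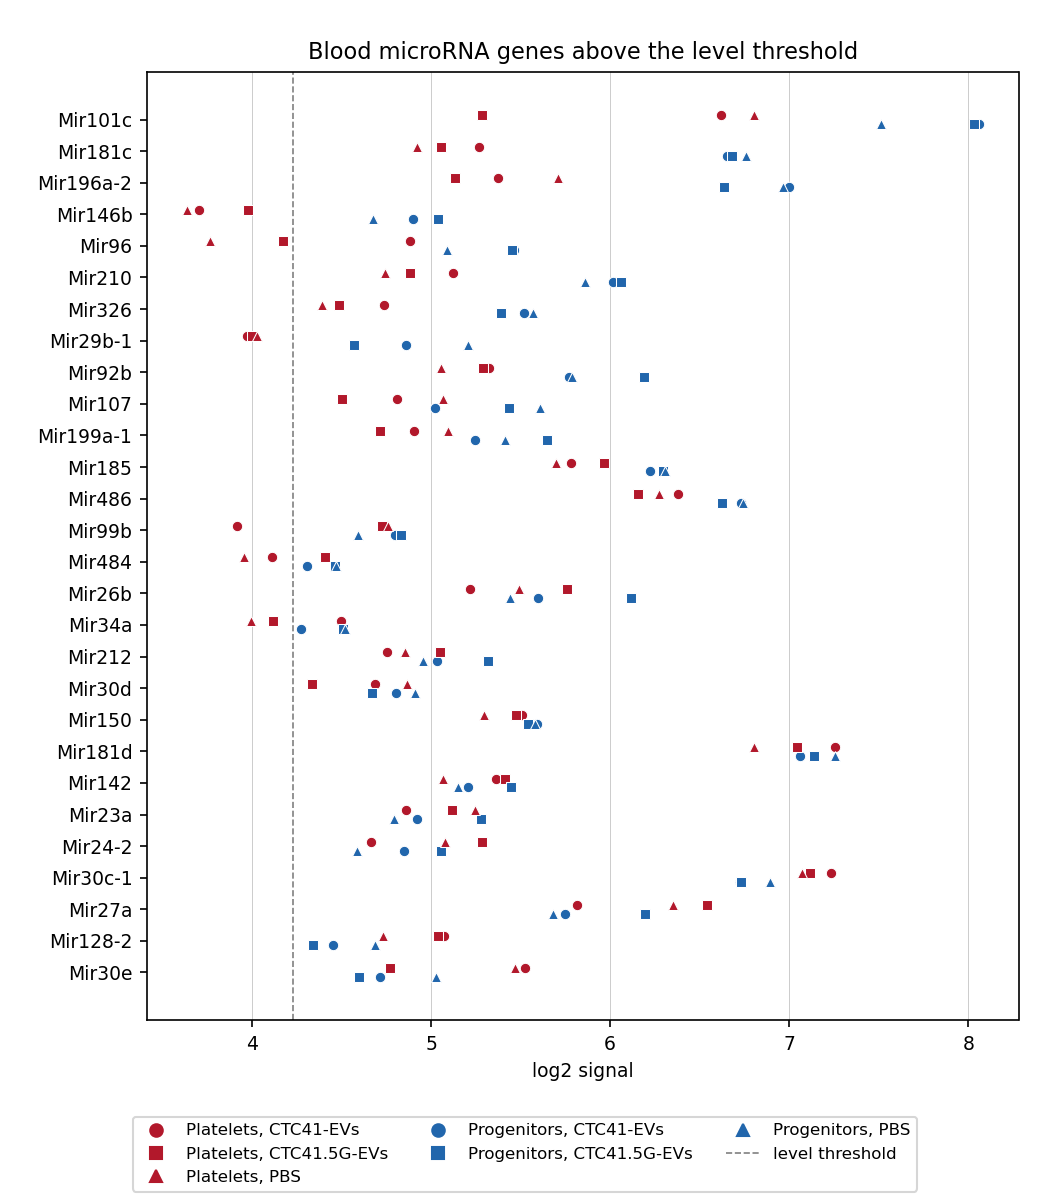
The 28 blood microRNA genes of the 3 lists that reached the threshold are shown by log2 signal on each array (horizontal axis), ordered by difference, with platelets in red above progenitors in blue, a symbol per treatment and the threshold as a dashed line. Red points lie left of blue ones for Mir181c, Mir196a-2 and Mir210 at the top, while those of Mir142 and Mir23a mix.

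Of 26 listed genes that make microRNAs or act with them, 16 were tested. Of these, 6 were higher in platelets, 0 lower and 10 not called, with a median of 0.12, where 16.2% of all genes were higher and 25.7% lower. Ago2, the Argonaute with slicing activity, had 6.88 with CTC41-EVs, 7.15 with CTC41.5G-EVs and 7.04 with PBS in platelets, against 5.62, 5.79 and 5.49 in progenitors, a difference of 1.39 (SE 0.12). The arrays of the cell types were well separated. Tut7, a uridylyltransferase of precursors, differed by 1.05, Ddx17, a helicase of the Drosha complex, by 0.97, Dicer1, the cytoplasmic processing enzyme, by 0.74, Ago1 by 0.69 and Xpo5, the exporter of precursors, by 0.66. Drosha was not called, at 0.12 (SE 0.10), nor were Khsrp, an RNA-binding protein of precursor processing, at -0.48 and Lin28a, which binds let-7 precursors, at -0.44.

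Markers of the cells moved with the comparison. All 10 platelet markers were higher in platelets, and their summed signal was 14.04 to 14.56 on the log2 scale, against 8.97 to 9.12 in progenitors, where 8 of the 10 were above the threshold. Of 10 neutrophil markers, 9 were lower in platelets, with a summed log2 signal of 8.58 to 8.77 against 10.70 to 10.90, and 8 were above the threshold in platelets and all 10 in progenitors. Of 6 erythroid markers on the arrays, 3 were higher in platelets, with sums of 10.81 to 10.92 against 7.82 to 7.86. Monocyte sums were 10.09 to 10.30 against 8.30 to 8.36, led by Lyz2 at a mean of 9.91 in platelets. Of 7 monocyte markers tested, Lyz2 (2.94) and Ly6c2 (0.94) were higher and 5 were not called, Cd68 (-0.27) and Fcgr1 (-0.29) among them. Lymphocyte sums were 7.71 to 7.79 against 8.24 to 8.38, with Cd79a and Cd79b called lower. The monocyte marker Ccr2 and the lymphocyte markers Ms4a1 and Cd3g lay under the threshold and were not tested. The part of these other cells in the microRNA differences was not tested.

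EV treatment was compared over both cell types in the same model, in which the PBS arrays serve both EV comparisons. limma called 0 microRNA genes with CTC41-EVs against PBS, 0 with CTC41.5G-EVs against PBS and 0 between the EV types, and 0.0% of all 18875 genes in each. At an unadjusted p under 0.05 there were 17 (6.14%), 36 (13.0%) and 37 (13.4%) microRNA genes, against 3.06%, 6.2% and 6.13% of all genes. Their median differences were -0.01, 0.03 and 0.00, where all genes had 0.01, 0.06 and 0.04. The gene of the smallest p in each comparison, named after the values were seen, was Mir378c (-2.42, SE 0.32, adjusted p 0.596), Mir713 (-0.60, SE 0.10, adjusted p 0.512) and Mir219a-2 (0.57, SE 0.12, adjusted p 0.61).

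Mir378c had 2.63 with CTC41-EVs, 4.17 with CTC41.5G-EVs and 5.83 with PBS in platelets. In progenitors it had 5.00, 6.17 and 6.64 in the same order. In each cell type the order was thus the same, with CTC41-EVs lowest and PBS highest, although 2 of the platelet values were under the threshold. Its probe named chromosome 3, where RefSeq gives chromosome 14 for the gene. Leaving out single arrays brought calls in the EV comparisons. Mir378c was then called with CTC41-EVs against PBS without the platelet PBS array (-1.73, adjusted p 0.017), without the progenitor PBS array (-3.11, adjusted p 1.41e-05) and without the progenitor CTC41-EVs array (-2.90, adjusted p 0.0232). With CTC41.5G-EVs against CTC41-EVs it was called without either PBS array (1.36, adjusted p 0.0117 and 0.006). Without the progenitor PBS array Mir378c (-1.75) was also called with CTC41.5G-EVs against PBS, and Mir872 with CTC41-EVs (-1.70) and CTC41.5G-EVs (-1.81) against PBS. In those fits 0.0107% of all genes at most were called, and 1 residual degree of freedom was left. Without the progenitor PBS array, comparisons with PBS rested on platelets alone.

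Within a cell type each EV comparison set 1 array against 1, so no test was possible and folds have no error. Genes were counted at 1.5-fold or more if their mean over its 3 arrays was at least 5.07, the 75th percentile of probe means, which 150 of the 277 genes did in platelets and 219 in progenitors. In platelets with CTC41-EVs against PBS, 6 genes were higher and 2 lower, where 0.449% and 2.34% of all genes were. Mir6994 stood at 6.48 with CTC41-EVs and 5.16 with PBS (1.31), Mir3098 at 6.47 and 5.47 (1.0) and Mir1941 at 5.97 and 5.04 (0.93). The lower ones were Mir684-1 and Mir684-2, each at -0.65. In progenitors the same comparison gave differences of 0.32 for Mir6994, -0.60 for Mir3098 and 0.06 for Mir1941.

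With CTC41.5G-EVs against PBS in platelets, 4 genes were higher and 9 lower, against 0.643% and 1.31% of all genes. Mir101c, of the miR-101 family, stood at 5.29 with CTC41.5G-EVs and 6.80 with PBS (-1.52), followed by Mir3088 (-0.89) and Mir3097 (-0.77). Mir466f-1 stood at 6.39 and 5.38 (1.01), with Mir1941 at 0.75 and Mir669d at 0.69. In progenitors Mir101c differed the other way, at 0.52. Between CTC41.5G-EVs and CTC41-EVs, 3 genes were higher and 8 lower in platelets, against 2.79% and 0.885%. Mir466f-1 (0.83), Mir27a (0.73) and Mir219c (0.73) were higher, and Mir101c (-1.33), Mir3098 (-1.32) and Mir193b (-0.96) lower.

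In progenitors with CTC41-EVs against PBS, 3 genes were higher and 3 lower, against 3.09% and 0.101% of all genes. Mir378c, described above, had the largest fold (-1.64), with Mir466d (-0.65) and Mir3098 (-0.60) also lower, and Mir325 (0.75), Mir138-2 (0.73) and Mir703 (0.65) higher. With CTC41.5G-EVs against PBS, 5 genes were higher and 8 lower, against 5.47% and 0.746%. Mir8115 stood at 5.09 with CTC41.5G-EVs and 6.47 with PBS (-1.38), Mir669b at 5.64 and 6.64 (-1.01) and Mir1934 at -0.75, while Mir138-2 stood at 0.85, Mir695 at 0.82 and Mir219b at 0.78. Between CTC41.5G-EVs and CTC41-EVs, 6 genes were higher and 3 lower, against 0.608% and 0.783%. Mir378c (1.18), Mir3098 (0.84) and Mir3475 (0.81) were higher, and Mir8115 (-0.99), Mir764 (-0.92) and Mir129b (-0.65) lower. Across these 6 comparisons the medians of the microRNA genes stayed between -0.10 and 0.07.

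**Figure D5:**
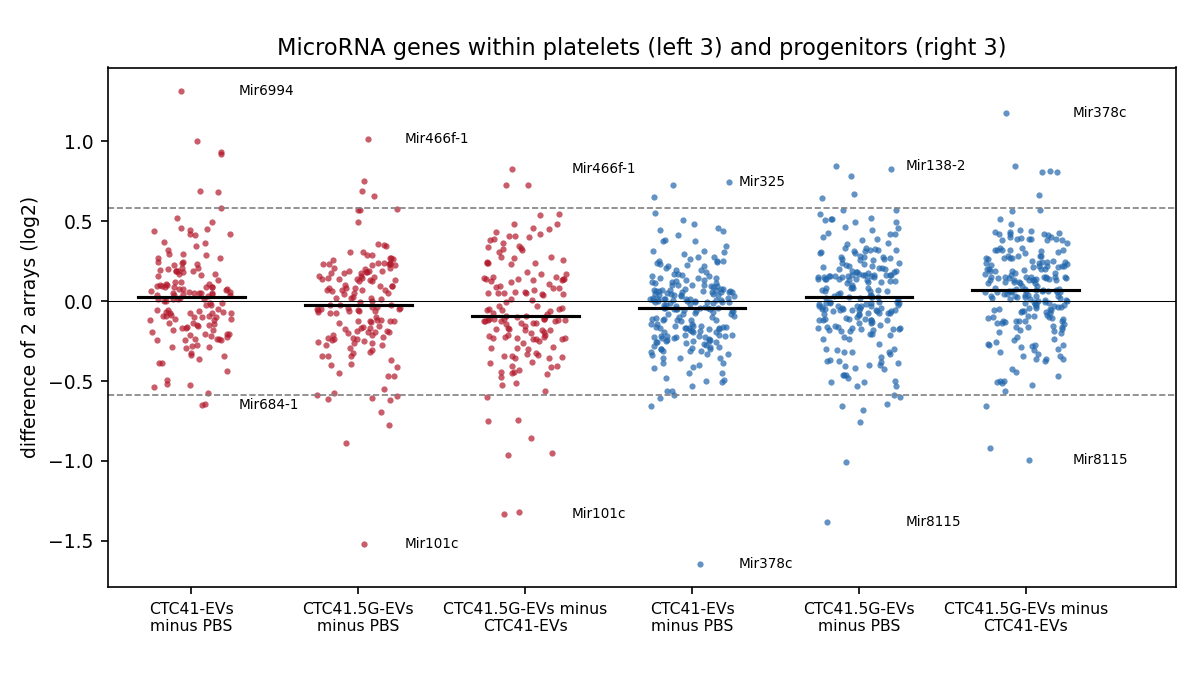
Each point is a microRNA gene with a mean of at least 5.07 in that cell type, placed by the log2 difference of 2 arrays (vertical axis) in each of 3 EV comparisons within platelets (red, 150 genes) and progenitors (blue, 219 genes), with black bars at the medians and dashed lines at 1.5-fold. Medians lie near 0, from -0.10 to 0.07, and the names mark the highest and lowest gene of each comparison.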

How the data were processed

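The deposited table holds log2 signals of 6 Clariom D Mouse arrays, from 0.23 to 14.06. The authors summarised the arrays with Affymetrix Expression Console 1.4.1.46, per the submitters' processing notes, while the series description names MAS5.0, so how the log2 values were scaled between arrays is unknown. They were used as deposited. GEO's annotation gave 1 symbol for 30604 probes, several for 2146 and none for 39938, and probes of the first kind were used. Of these, 22815 matched RefSeq GRCm38.p6 by Entrez ID. A gene with several probes took the brightest. Signals have no counting depth, so precision is set by the number of arrays.

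Cell type and EV treatment were tested with limma 3.58.1 in R 4.3.3 (lmFit, eBayes with an intensity trend, additive terms, 2 residual degrees of freedom, Benjamini-Hochberg adjustment) over 18875 genes at or above the 50th percentile of probe means, 4.23. In each group 1 pooled array stood for all mice, so p-values rest on the spread of the model, which may be technical. On simulated data with independent noise, no treatment effects and 200 genes changed by 2 log2 units, the fit recovered 200. That checks the code and says nothing of the p-values on these pools. SEs are those of the fitted difference. Within a cell type no test was made.

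Named genes were Mir872, called genes of the blood lists, the 8 largest calls each way, the 6 brightest, up to 3 each way in each EV comparison within a cell type, called microRNA processing genes and the genes next to the threshold; others named are shared-seed, host, cluster or probe examples chosen after their values were seen. The members, lists and rules were chosen with earlier results of these data known. Of the 584 microRNA genes, 42 had several probes, 32 of them above the threshold, and 535 further probes that name a microRNA gene with other genes were not used here.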

Additional observations from a re-analysis of the deposited data

Results flagged for a closer look

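Mir3098 moved in opposite directions in the cell types, and the difference between them was not tested, since each group was 1 array. With CTC41-EVs against PBS it differed by 1.0 in platelets and -0.60 in progenitors. With CTC41.5G-EVs against CTC41-EVs it differed by -1.32 in platelets and 0.84 in progenitors. The CTC41-EVs array of each cell type enters both comparisons, so they are not independent. Its kept probe named chromosome 2, where RefSeq gives chromosome 6.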

How the results depend on the processing

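The cell type comparison kept a negative median in all settings tried, while its counts moved. Higher calls numbered 13 as deposited, 22 after quantile normalization, 27 with equal array medians, 54 with olfactory receptor medians equal, 26 with no level threshold and 25 with no fold threshold. Lower calls numbered 164 as deposited and 73 with olfactory receptor medians equal. The median was -0.76 as deposited, -0.54, -0.38 and -0.042 under the 3 scalings in the same order, -0.43 with no level threshold, -0.65 without the genes numbered 466, 467 and 669 and -0.63 without genes under the threshold in 1 cell type, where the last pair of settings were added after seeing the data. Leaving out each array gave 149 to 170 lower calls, 11 to 18 higher calls and medians from -0.81 to -0.73. For these fits, and with no fold threshold, shares of all genes are not given, so the counts describe microRNA genes alone. Mir92b changed sign, to 0.026, with olfactory receptor medians equal, and the cause was not tested. Among the values of single named genes under the alternatives, 532 kept their direction and side of the threshold, 25 kept their direction and lost the call, and 5, differences within a cell type, came under 1.5-fold.

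For EVs averaged over both cell types, leaving out each array gave 0 to 2 calls with CTC41-EVs, 0 to 2 with CTC41.5G-EVs and 0 to 1 between the EV types. Without the platelet PBS array the counts were 1, 0 and 1, without the progenitor PBS array 2, 2 and 1, and without the progenitor CTC41-EVs array 1, 0 and 0.

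Counts within a cell type moved with most settings, and they are small. Shares over all genes were given above for the main setting only, so the counts below have no background beside them. At 2-fold, higher and lower genes numbered 1 and 0, 1 and 1, and 0 and 2 in platelets, for CTC41-EVs against PBS, CTC41.5G-EVs against PBS and CTC41.5G-EVs against CTC41-EVs, and 0 and 1, 0 and 2, and 1 and 0 in progenitors. With the threshold at the 50th percentile, 234 microRNA genes were counted in platelets and 275 in progenitors. CTC41-EVs against PBS then gave 10 higher and 4 lower in platelets and 7 lower in progenitors. CTC41.5G-EVs against CTC41-EVs gave 8 higher and 14 lower in platelets. After quantile normalization platelets gave 1 lower with CTC41-EVs and 6 higher between the EV types, and progenitors gave 0 higher and 11 lower with CTC41-EVs, 22 lower with CTC41.5G-EVs and 8 lower between the EV types. With equal array medians platelets gave 4 lower with CTC41-EVs and 6 higher between the EV types, and progenitors gave 3 higher with CTC41.5G-EVs and 5 lower between the EV types. With olfactory receptor medians equal platelets gave 5 higher and 13 lower between the EV types, and progenitors gave 2 higher with CTC41.5G-EVs and 3 higher and 9 lower between the EV types. The additive treatment term set the cell types against each other within treatments. No pairing by mouse was possible because each group was 1 pooled array, and replicate numbers do not pair samples.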
